A study of Mus musculus with 8 samples.

Results

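Integrins, Toll-like receptors, LDL receptor-related proteins and insulin-like growth factors, the families to which the best-known client proteins of Grp94 belong, were examined together with genes of the extracellular matrix in N2a cells after knockdown of Grp94. Members were taken by gene symbol alone from the authors' deposited table of changed genes, whatever their values. The families themselves were chosen with earlier results of these data known. The symbols start with Itga, Itgb, Tlr or Lrp and a digit, or are Igf1, Igf2, Igf1r or Igf2r, for the client families. They start with Lama, Lamb, Lamc, Adam, Mmp, Timp, P4ha, Plod or Col and a digit for the matrix genes, and with Igfbp for the binding proteins of the growth factors. The rule found 20 of the 2395 transcript clusters of the table, a transcript cluster being a set of probes that the array assigns to a gene or, in some cases, to more than 1. These were 9 transcript clusters of client families, 9 of matrix genes and 2 of IGF-binding proteins, for 19 gene symbols in all, since Lrp2bp was found in a pair of transcript clusters.

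The cells, neuro2a or N2a, are a line derived from a mouse neuroblastoma, and their RNA was hybridised to 8 Affymetrix Mouse Gene 1.0 ST arrays. In 4 arrays the cells had received a control vector, labelled only as a vector and called the empty vector here. In 4 arrays they had received a vector for an artificial microRNA against Grp94 (Hsp90b1). Several Grp94 constructs and a non-targeting control vector existed in the study, and neither the construct behind each array nor the use of separate cultures is stated in the labels. Cells were transfected transiently by lipofection and harvested days later, and the share of cells that took up a vector is not given in the sources used here.

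Grp94 is the member of the HSP90 chaperone family that works in the lumen of the endoplasmic reticulum (ER). Its clients are secreted and membrane proteins, and cells without it are known to lose many integrins and Toll-like receptors from their surface because the proteins do not mature. That is a step after translation, whereas the arrays measured mRNA, so these values describe the transcripts of the client genes and not the amount or folding of the proteins. Collagens, which make up much of the matrix, are modified in the same compartment, where prolyl hydroxylases (P4ha genes) stabilise the triple helix and lysyl hydroxylases (Plod genes) prepare cross-links.

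For each transcript cluster the authors' deposited table holds 1 log2 mean per group, centred on the transcript cluster itself. A centred mean says how far a group lies above or below the middle of the arrays and keeps no level of expression, so levels of different genes cannot be compared. The effect given here is the knockdown mean minus the vector mean on the log2 scale. With only group means used here, no SD stands beside a mean, no test was run, and it cannot be judged from these means whether a difference is larger than the spread between arrays. The number of arrays limits the precision of each mean. All rows of the table had already been selected on significance by the authors' own comparison of both groups, whose p-values and q-values are in the table but were not used. A gene that is not in the table is called not listed, which does not show that it was unchanged.

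The target gene was examined first. Hsp90b1 had a centred mean of 0.74 in the empty vector and -0.78 in the knockdown, a difference of -1.52 or 2.87-fold lower, and only 2 of the 2395 transcript clusters had a lower difference. Of 12 neuroblastoma and neuronal genes looked up, 5 were listed (Dbh, Gap43, Hand2, Stmn2 and Th), 3 of them lower and 2 higher. Of 6 fibroblast genes only Lum was listed, with a higher mean in the knockdown. Because the table holds changed genes without levels, it cannot show whether a marker was expressed. In RNA of whole cultures, a lower mean may come from less RNA per cell or from fewer cells that express the gene, and these cannot be told apart.

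To show the DNA in front of members that the results turn on, the bases before the transcription start were read from RefSeq (build GRCm38.p6). P4ha1, P4ha2 and Plod3 are shown as the collagen hydroxylases with an entry, Igfbp6 as the lowest transcript cluster with a single symbol, and Itga5 as the highest client gene. Each is written 5′ to 3′ on the strand of the gene and ends at the last base before the first start of the gene. Capitals mark ACGTG or GCGTG, the core of sites bound by the hypoxia-inducible factors (HIF), and CCAAT, the box bound by NF-Y, or their reverse complements. The P4ha1 stretch of 151 bases is chr10:59323046-59323196 (plus strand) and the P4ha2 stretch of 250 bases is chr11:54100674-54100923 (plus strand). Those of Plod3, Igfbp6 and Itga5 are chr5:136986769-136987018 (plus strand), chr15:102143936-102144185 (plus strand) and chr15:103366792-103367041 (minus strand), each of 250 bases.

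P4ha1: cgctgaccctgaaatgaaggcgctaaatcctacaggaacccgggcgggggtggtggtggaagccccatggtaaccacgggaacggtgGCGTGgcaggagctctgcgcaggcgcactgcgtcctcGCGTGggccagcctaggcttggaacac
P4ha2: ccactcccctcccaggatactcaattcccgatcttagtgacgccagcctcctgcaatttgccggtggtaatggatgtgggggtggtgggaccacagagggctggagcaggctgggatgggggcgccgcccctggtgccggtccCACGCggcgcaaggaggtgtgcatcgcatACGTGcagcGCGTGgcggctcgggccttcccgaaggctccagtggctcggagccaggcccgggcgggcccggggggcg
Plod3: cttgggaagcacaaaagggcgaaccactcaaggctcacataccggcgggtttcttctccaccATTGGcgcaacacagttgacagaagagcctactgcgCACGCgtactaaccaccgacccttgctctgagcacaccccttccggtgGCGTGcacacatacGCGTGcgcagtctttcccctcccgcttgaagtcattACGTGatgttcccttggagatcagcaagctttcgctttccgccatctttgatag
Igfbp6: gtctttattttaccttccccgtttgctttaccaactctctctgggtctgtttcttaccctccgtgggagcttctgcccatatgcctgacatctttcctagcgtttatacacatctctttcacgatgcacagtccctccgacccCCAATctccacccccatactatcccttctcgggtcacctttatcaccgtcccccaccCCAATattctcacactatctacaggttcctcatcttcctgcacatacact
Itga5: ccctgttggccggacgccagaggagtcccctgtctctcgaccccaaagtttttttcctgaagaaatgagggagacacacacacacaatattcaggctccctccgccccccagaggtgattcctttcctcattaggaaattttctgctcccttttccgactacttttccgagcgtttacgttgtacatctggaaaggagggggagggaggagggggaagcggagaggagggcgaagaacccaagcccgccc

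Matches were counted in the whole RefSeq window, which runs from 250 bases before to 50 bases after a start, on both strands. A CACGTG counts on each strand. P4ha1 had 3 HIF cores in this window, of which 2 lie in the stretch shown, P4ha2 had 4, of which 3 are shown, and Plod3 had 4, all shown. Igfbp6 and Itga5 had none, and Igfbp6 had 2 CCAAT boxes. The stretches shown do not stand for all members. Among those with a higher mean and a window, Igf1r had 3 HIF cores, Igfbp7 2 and Timp2 1, while Itga5 and Itgav had none. Among those with a lower mean and a window, Igfbp6 and Mmp11 had none. Over the 14 member symbols with a window, 10 (71.4%) had a HIF core, against 46.7% of the 27025 genes with a window, and 5 (35.7%) had a CCAAT box, against 41.1%. The 27025 genes were not limited to protein-coding genes or to genes of the deposited table, so these shares are over unlike sets. Adam12, Itgb4, Lama4, Plod2 and Tlr4 had no entry. These counts describe letters in a window and not the binding of a factor.

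Over all 20 members, 14 (70%) had a lower and 6 a higher mean after knockdown, where 59.9% of the whole table was lower. The median difference was -0.31 for the members and -0.16 for the table. Past a 1.3-fold difference (0.38 on the log2 scale), 6 members (30%) were lower, against 16.1% of the table, and 1 member (5%) was higher, against 6.26%. The lower ones were the transcript cluster of Ankrd37 and Lrp2bp, Igfbp6, Plod2, P4ha2, Tlr4 and Itga2, and the higher one was Adam12. Just inside this limit lay Itga2 at 1.34-fold, and just outside lay Mmp11 at 1.298-fold. Both counts rest on the zero point of the scale, since 2 members were lower and 5 higher past the limit when the differences were re-centred on the median of the table. The shares of the whole table past the limit were not computed after re-centring. With 20 members the share past the limit rests on few genes, and no test was run on it.

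**Figure D1:**
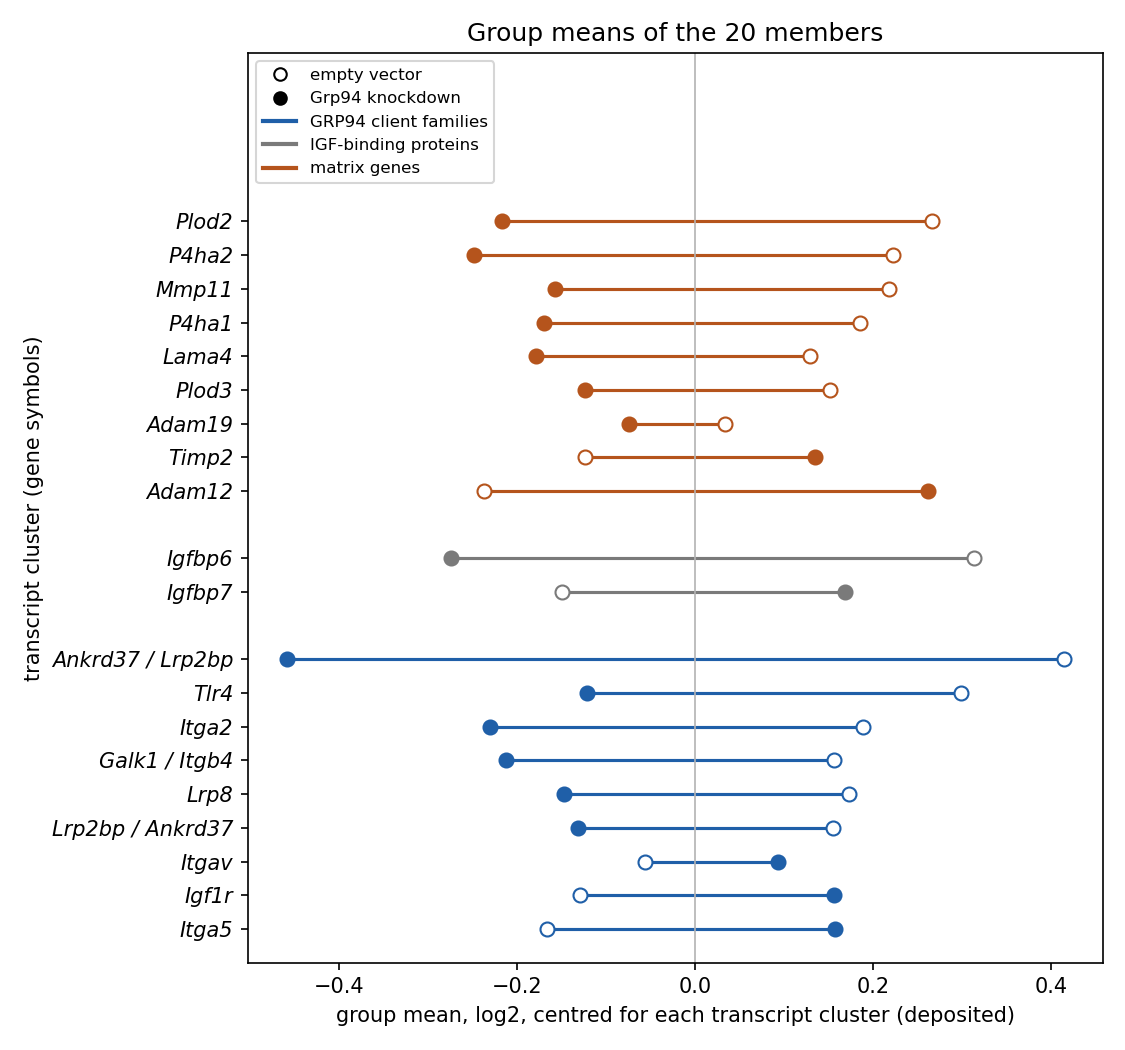
Centred log2 group means of the 20 members (x axis, as deposited), with an open circle for the empty vector (4 arrays) and a filled circle for the Grp94 knockdown (4 arrays), coloured by class; the line between them is the difference and no error is available. In 14 rows the filled circle lies to the left of the open one, and the longest lines are those of Ankrd37 / Lrp2bp and Igfbp6.

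Integrins are pairs of an alpha and a beta subunit that bind matrix outside the cell and the cytoskeleton inside. Of their subunits, 3 alpha genes and 1 transcript cluster with a beta gene were listed, and they did not go the same way. Itga5, the alpha subunit of the fibronectin receptor (transcript cluster 10433114, chromosome 15, 103174717 to 103197194), had centred means of -0.17 in the empty vector and 0.16 in the knockdown, a difference of 0.32 or 1.25-fold higher. Itgav, the alpha subunit of receptors for vitronectin and other RGD proteins (chromosome 2, 83564672 to 83643964), had -0.06 and 0.09, a difference of 0.15 or 1.11-fold higher. Thus both alpha subunits known for binding the RGD sequence were higher in the knockdown mean, by unlike amounts. Itga2, the alpha subunit of a collagen receptor (chromosome 13, 115626033 to 115722260), had 0.19 in the empty vector and -0.23 in the knockdown, a difference of -0.42 or 1.34-fold lower. The genome build of these positions is not given in the sources used here.

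The beta subunit gene of this set, Itgb4, shares its transcript cluster with Galk1, which encodes galactokinase. This transcript cluster (10393047, chromosome 11, 115869671 to 115874033) had 0.16 in the empty vector and -0.21 in the knockdown, a difference of -0.37 or 1.29-fold lower. It spans 4363 bases of the minus strand, which is the strand of Galk1 in RefSeq, whereas Itgb4 is a long gene with many exons. The value is therefore not shown to be that of the integrin mRNA. Without it, 1 integrin gene was lower and 2 were higher. Itgb1, the partner of Itga2 and of Itga5, was not listed, nor were Itgb3 and Itgb5, partners of Itgav.

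Toll-like receptors recognise microbial products, and nearly all of them need Grp94 together with its co-chaperone Cnpy3. Tlr4, the receptor for bacterial lipopolysaccharide (transcript cluster 10505517, chromosome 4, 66488633 to 66503831), was the only one listed. Its centred means were 0.30 in the empty vector and -0.12 in the knockdown, a difference of -0.42 or 1.34-fold lower. It was the second lowest of the client transcript clusters, next to Itga2. Neither Cnpy3 nor Tlr2 or Tlr9 was listed.

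Of the LDL receptor-related proteins, Lrp8 alone was listed, and the symbol Lrp2bp, which the rule also takes, names a protein that binds Lrp2 and is no receptor. Lrp8, the receptor for reelin and apolipoprotein E on neurons (chromosome 4, 107474866 to 107546772), had 0.17 in the empty vector and -0.15 in the knockdown, a difference of -0.32 or 1.25-fold lower. Lrp5 and Lrp6, co-receptors of Wnt proteins and the members of this family best known to need ER chaperones, were not listed.

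Lrp2bp stood in a pair of transcript clusters that carry the same symbols, Lrp2bp and Ankrd37, on opposite strands. The one on the minus strand (10578515, chromosome 8, 47082256 to 47085204, 2949 bases) had 0.41 in the empty vector and -0.46 in the knockdown, a difference of -0.87 or 1.83-fold lower. The one on the plus strand (10571634, chromosome 8, 47084662 to 47114830, 30169 bases) had 0.16 and -0.13, a difference of -0.29 or 1.22-fold lower. In RefSeq the start of Ankrd37 lies on the minus strand and that of Lrp2bp on the plus strand. The lowest value of all members, which ranked 34 from the bottom of the 2395, thus stands on the strand of Ankrd37, a gene known to be induced by low oxygen, and not on that of the gene for which the rule took it.

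In the growth factor axis, IGF-1 and IGF-2 bind the receptor Igf1r, and the Igfbp proteins hold the factors in the medium. The ligands Igf1 and Igf2, whose folding is known to need Grp94, were not listed, nor was Igf2r, which clears IGF-2. Igf1r (chromosome 7, 75097143 to 75378553) had -0.13 in the empty vector and 0.16 in the knockdown, a difference of 0.29 or 1.22-fold higher. The 2 listed binding proteins went opposite ways. Igfbp6, which prefers IGF-2 (transcript cluster 10427125, chromosome 15, 101974793 to 101979943), had 0.31 and -0.27, a difference of -0.59 or 1.503-fold lower. Igfbp7, which binds the IGFs only weakly (chromosome 5, 77778270 to 77837070), had -0.15 and 0.17, a difference of 0.32 or 1.25-fold higher. Igfbp6 ranked 126 from the bottom of the table and was the lowest member with a single symbol.

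Among the matrix genes, the 4 collagen hydroxylases were all lower, where 59.9% of the whole table was lower. Plod2, the lysyl hydroxylase of the collagen telopeptides (transcript cluster 10587829, chromosome 9, 92437240 to 92503268), had 0.27 in the empty vector and -0.22 in the knockdown, a difference of -0.48 or 1.40-fold lower. P4ha2, a catalytic subunit of prolyl 4-hydroxylase (10376074, chromosome 11, 53914514 to 53945154), had 0.22 and -0.25, a difference of -0.47 or 1.39-fold lower. These 2 passed the 1.3-fold limit, and each comes from a family in which the other listed gene was lower as well. Of the whole table, 16.1% was lower past this limit. No matrix gene was lower past it after re-centring on the median of the table.

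P4ha1, the other listed catalytic subunit (chromosome 10, 58786116 to 58835092), had 0.18 in the empty vector and -0.17 in the knockdown, a difference of -0.35 or 1.28-fold lower. Plod3, which also adds sugars to hydroxylysine (chromosome 5, 137462889 to 137472409), had 0.15 and -0.12, a difference of -0.28 or 1.21-fold lower. The median difference of the 4 hydroxylases was -0.41. P4ha1, P4ha2 and Plod2 are known from other cells as genes that HIF induces, and whether HIF had a part in these values was not tested. P4ha3 and Plod1, the remaining catalytic genes of both families, were not listed.

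The other matrix genes went both ways. Mmp11, a secreted protease also called stromelysin-3 (chromosome 10, 75385967 to 75395214), had 0.22 in the empty vector and -0.16 in the knockdown, a difference of -0.38 or 1.298-fold lower. Lama4, the alpha-4 chain of laminins in vessel and nerve basement membranes (chromosome 10, 38685383 to 38829989), had 0.13 and -0.18, a difference of -0.31 or 1.24-fold lower. Adam19, a membrane-bound metalloprotease (chromosome 11, 45869554 to 45960845), had 0.03 and -0.07, and its difference of -0.11 was the smallest of all members.

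Against this, the related metalloprotease Adam12 (transcript cluster 10568668, chromosome 7, 141074882 to 141416780) had -0.24 in the empty vector and 0.26 in the knockdown. Its difference of 0.50, or 1.41-fold higher, was the highest of all members and ranked 51 from the top of the table. Timp2, an inhibitor of matrix metalloproteases (chromosome 11, 118162375 to 118216820), had -0.12 and 0.14, a difference of 0.26 or 1.196-fold higher. Of the collagens themselves (Col and a digit) no gene was listed, nor any Lamb or Lamc gene, so the enzymes that modify collagen were in the table without a collagen chain.

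**Figure D2:**
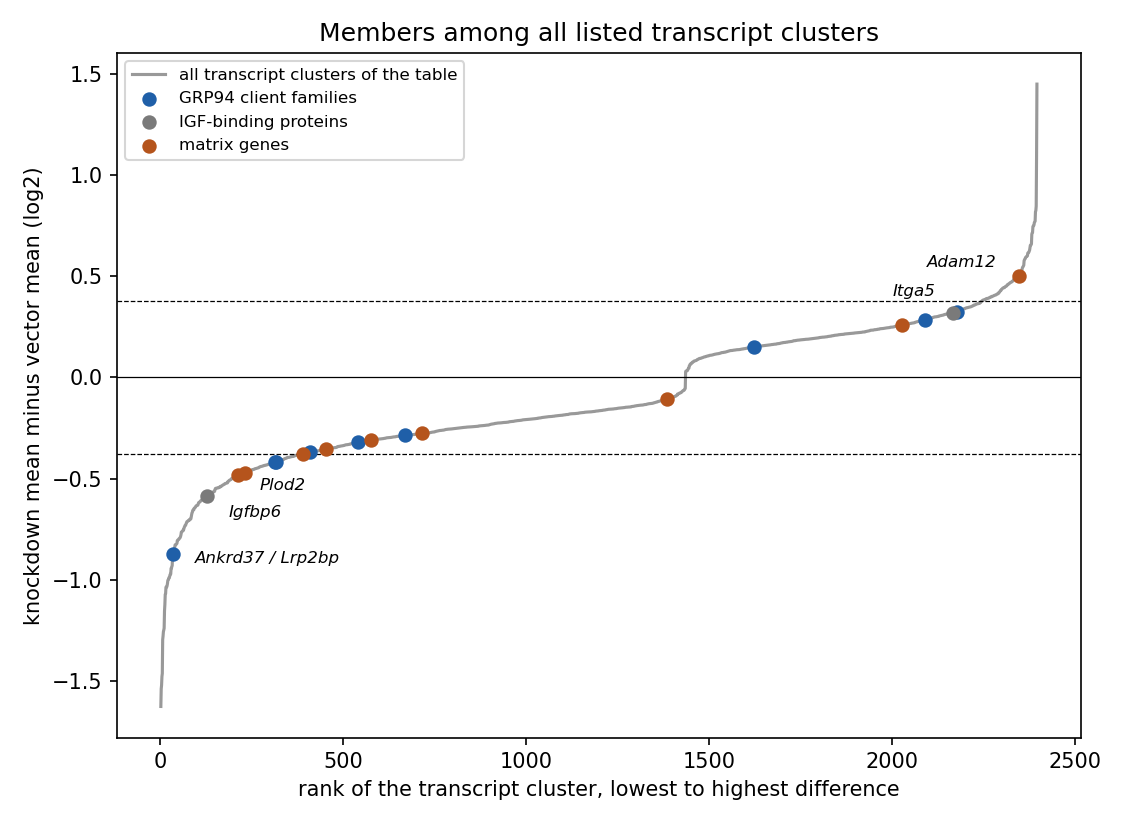
Difference of the group means (knockdown minus vector, log2, y axis) of all 2395 transcript clusters ranked from lowest to highest (x axis, grey line), with the 20 members as points coloured by class; dashed lines mark a 1.3-fold difference. Points of the client families and of the matrix genes lie on both sides of 0, with 6 points of the first and 7 of the second below it.

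Client families were then set against matrix genes. Of 9 client transcript clusters 6 (66.7%) were lower, with a median difference of -0.32. Of 9 matrix transcript clusters 7 (77.8%) were lower, with a median of -0.31. Among all 2395 transcript clusters, 59.9% were lower, with a median of -0.16. Past the 1.3-fold limit stood 3 lower and 0 higher for the client families, and 2 lower and 1 higher for the matrix genes, where the table had 16.1% lower and 6.26% higher. After re-centring on the median of the table these were 1 lower and 2 higher for the client families, and 0 lower and 2 higher for the matrix genes. The shares of the whole table hold before re-centring and were not computed after it. Both ranges crossed 0, from -0.87 to 0.32 for the client families and from -0.48 to 0.50 for the matrix genes. Each median moved with single choices. Without the pair of Lrp2bp transcript clusters, 2 of 7 client transcript clusters were lower past the limit before re-centring, and the client median was still -0.32. Without that of Galk1 and Itgb4 as well, 3 client genes were lower and 3 higher, with a median of -0.085. Without the 4 hydroxylases, 3 matrix genes were lower and 2 higher, with a median of -0.11. No difference between the classes was tested.

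How much of each family the table holds was counted against the protein-coding symbols of the RefSeq gene table used here (GRCm38.p6) that the rule would take. Of 214 such symbols, 19 were listed. They were 4 of 31 integrin symbols (binding proteins included), 1 of 12 Toll-like receptors, 2 of 12 Lrp symbols, 2 of 8 Igfbp genes, 2 of 3 P4ha genes, 2 of 3 Plod genes, 2 of 59 Adam genes, 1 of 23 Mmp genes and 0 of 44 collagen genes. Which of the others the authors' filter on low expression removed is not known here, so these shares are no measure of how often a family changed.

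Genes that work with the members were looked up in 7 lists, chosen by function but with earlier results of these data known. Of 124 genes, 21 were listed, 13 of them lower (61.9%) and 8 higher, with a median difference of -0.19, which is close to the 59.9% and -0.16 of the table. Past the 1.3-fold limit stood 1 of the 21 lower (Sparc) and 3 higher (Znrf3, Bmp1 and Pcsk6). Of the whole table, 16.1% was lower and 6.26% higher past this limit. Of 13 partners and further reported clients of Grp94 only Sel1l, an adaptor of ER-associated degradation, was listed, at -0.19. Of 18 genes of IGF signalling only Shc1, an adaptor behind the receptor, was listed, at -0.32.

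Collagen folding and cross-linking had 5 of 19 genes listed, 4 lower and 1 higher, where 59.9% of the whole table was lower. None of the lower ones passed the 1.3-fold limit, and the higher one, Bmp1, did. Of the whole table, 16.1% was lower and 6.26% higher past it. P4hb, the partner of the P4ha subunits and also called protein disulfide isomerase, had centred means of 0.13 in the empty vector and -0.14 in the knockdown, a difference of -0.27. Crtap, a subunit of the prolyl 3-hydroxylase complex, had 0.15 and -0.16, a difference of -0.31. Glt25d1, a galactosyltransferase of hydroxylysine, had 0.12 and -0.19, a difference of -0.30. These 3 enzymes or subunits act in the ER on the same substrate as the hydroxylases. Mia3, which loads procollagen into transport carriers, had a difference of -0.18. Bmp1, the protease that trims procollagen outside the cell, had -0.21 and 0.19, a difference of 0.41 or 1.32-fold higher.

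Integrin adhesion had 2 of 16 genes listed, Parva at -0.28 and Tln2 at 0.10, which link integrins to actin. On the Wnt side of Lrp5 and Lrp6, 3 of 20 genes were listed. Znrf3, a ubiquitin ligase that removes Wnt receptors, had centred means of -0.27 and 0.22, a difference of 0.49. The receptor Fzd7 had a difference of 0.33, and Dkk1, an inhibitor that binds Lrp6, one of -0.11. Of 26 other matrix proteins 4 were listed. Sparc, a collagen-binding glycoprotein, had 0.20 and -0.21, a difference of -0.42. The proteoglycans Spock2 and Bcan had differences of -0.26 and -0.20, and fibulin Fbln2 one of 0.27. Of 12 genes that control matrix proteases 5 were listed, 2 lower and 3 higher. The plasminogen activator Plat (-0.35) and Tspan14 (-0.24), a tetraspanin that escorts the sheddase Adam10, were lower. Furin (0.33), Pcsk6 (0.39) and Rhbdf2 (0.26) were higher, the first and second being proprotein convertases and the last a partner of the sheddase Adam17.

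**Figure D3:**
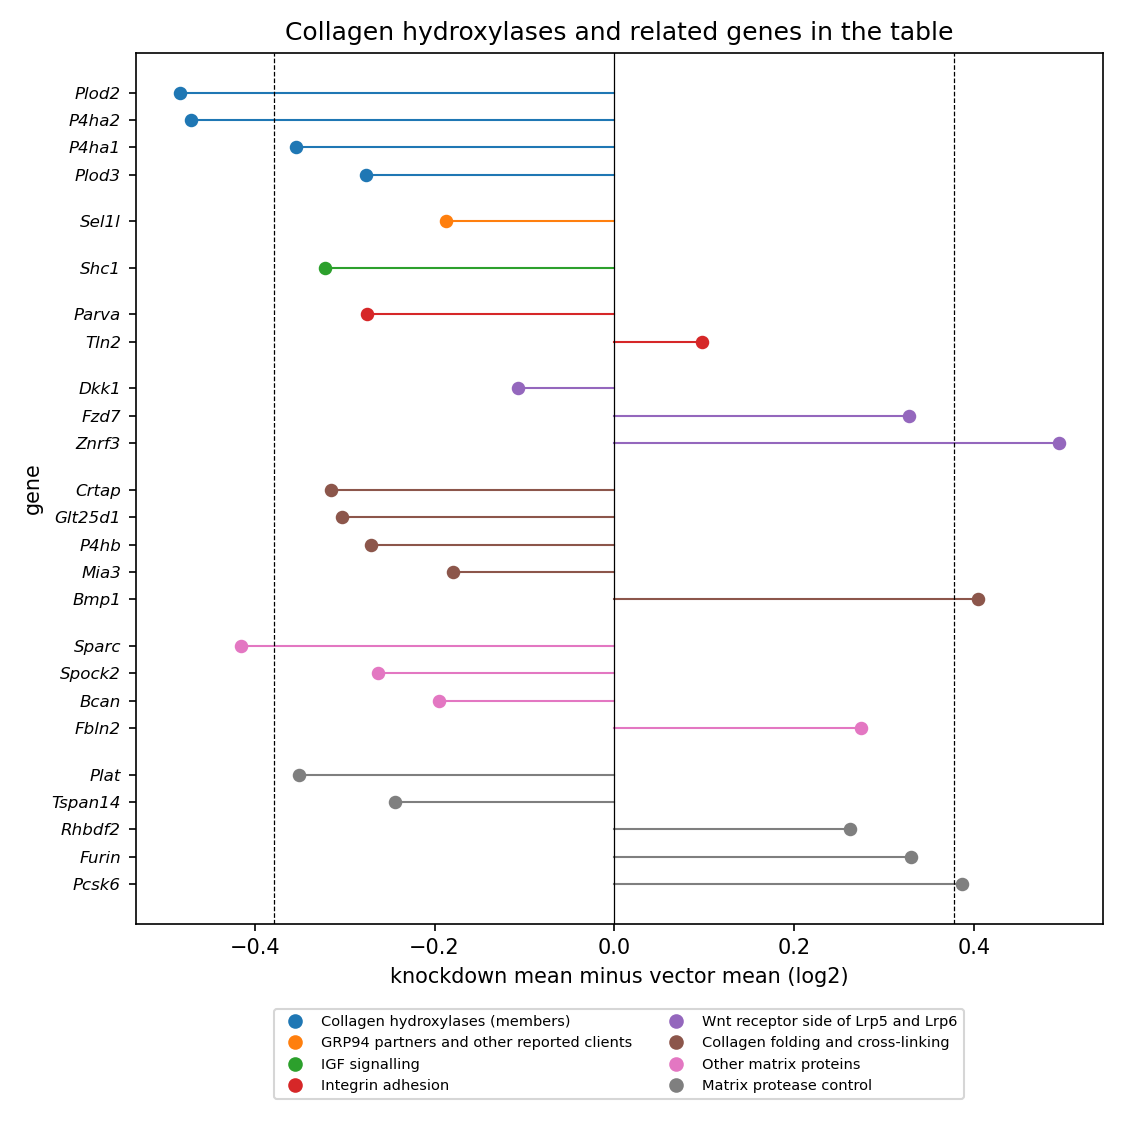
Difference of the group means (knockdown minus vector, log2, x axis) of the 4 collagen hydroxylases and the 21 listed genes of the 7 related lists, 1 row per gene and 1 colour per list; dashed lines mark a 1.3-fold difference and no error is available. All 4 hydroxylases lie left of 0, as does 59.9% of the whole table, while the lists on Wnt receptors and on protease control hold genes on both sides.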

How the data were processed

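RNA from transfected N2a cells was labelled by the authors and hybridised to 8 Affymetrix Mouse Gene 1.0 ST arrays, which they analysed in Agilent GeneSpring GX after leaving out genes of low expression. The deposited log2 values are the authors' means of each group, centred for each transcript cluster. Normalization between arrays, summarization of probes and genome build are not given in the sources used here. The table also has the authors' fold changes, their direction, p-values and q-values, which were not used. Groups were taken from sample titles, and 0 columns of values per sample were left unused.

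Members were found by symbol, and the vector mean was subtracted from the knockdown mean. Counts past 1.3-fold and medians were computed beside those of all rows. No test was possible from 2 means per row. All members, and all listed genes of 7 related lists, are named, except 1 gene of these lists that is not reported here. Members, lists and limits were chosen with earlier results of these data known. Sequences and gene counts came from RefSeq (GRCm38.p6), where 14 of 19 member symbols had a promoter. Alternatives changed the fold limit, the treatment of shared transcript clusters, the classes and the zero point. Python 3.11.15, numpy 2.4.6, pandas 2.3.3, scipy 1.17.1 and matplotlib 3.10.9 were used, and the selection and counting were tested on simulated data.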

Additional observations from a re-analysis of the deposited data

How the results depend on the processing

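Of 40 alternatives, all planned, 28 left a value near that reported and 12 moved it. A share was called near anywhere inside the exact binomial interval of the reported share, which is wide for so few genes. A median was called near within 0.05. Settings on symbols and binding proteins could not move the matrix genes, which all have 1 symbol and are no binding proteins. The count of 28 is therefore no measure of stability either. Shares of lower genes ran from 50% to 75% for the client families (66.7% reported), from 60% to 77.8% for the matrix genes (77.8%) and from 64.7% to 68.4% for all members (70%). With so few genes these ranges are no measure of stability. Before re-centring, 59.9% of all 2395 transcript clusters were lower. Re-centring the differences on the median of the table (-0.16) gave 2 members lower and 5 higher past 1.3-fold in place of 6 and 1, with medians of -0.16 for the client families and -0.14 for the matrix genes, while that of the 2 IGF-binding proteins turned from -0.13 to 0.03. The order of both counts thus rests on the zero point, and re-centring on listed genes alone evens out directions by construction. Counts followed the fold limit, with 13 lower and 4 higher at 1.2-fold, 2 and 0 at 1.5-fold and 14 and 6 with no limit. The shares of the whole table past the limit were not computed after re-centring, at 1.2-fold or at 1.5-fold. These counts therefore have no background beside them. With transcript clusters of 1 symbol the client median was -0.085, and without the hydroxylases the matrix median was -0.11. No paired analysis was possible because the values used are 1 mean per group, and for the same reason no array could be left out.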

Other observations

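Enzymes and subunits that modify collagen inside the ER were put together after their values had been seen, so the grouping is a description without a test. All 7 listed ones (P4ha1, P4ha2, Plod2, Plod3, P4hb, Crtap and Glt25d1) were lower in the knockdown mean, where 59.9% of the whole table was lower. They ran from -0.48 to -0.27 on the log2 scale, with a median of -0.31. Of the 7, 2 were lower past a 1.3-fold difference, against 16.1% of the whole table. After re-centring on the median of the table, no matrix gene was lower past that limit, and the share of the whole table was not computed there.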
